A study of Mus musculus with 6 samples.

Results

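The genes of sphingolipid and myelin galactolipid metabolism were followed in mouse primary cultured oligodendrocyte (OL) precursor cells (mOPCs) after knockdown of Qk, the gene of the RNA-binding Quaking proteins. They were chosen by name: 34 genes whose products make, modify, carry or break down ceramide and the lipids built on it. Of the 34 symbols, 33 matched a row among the 23038 genes that the files list, 5 of them under the older Lass names of the ceramide synthases. Cers1, a ceramide synthase whose RefSeq locus coincides with that of Gdf1, was not analysed here.

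Sphingolipids are made from serine and a fatty acyl-CoA, which serine palmitoyltransferase joins at the endoplasmic reticulum. The product is reduced, acylated by ceramide synthases and desaturated to ceramide, which then receives phosphocholine to give sphingomyelin, glucose to give glucosylceramide and gangliosides, or galactose to give galactosylceramide. Galactosylceramide and its sulfated form, sulfatide, are abundant lipids of myelin and long-used surface antigens of the OL lineage, while the ganglioside GD3 is known from immature glial cells.

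The mOPCs had been purified by immunopanning from mouse embryos (E14.5) and transfected with control siRNAs (siNC, 3 libraries) or with siRNAs against Qk (siQk, 3 libraries), and were collected 72 h later. The siQk arm used 3 different siRNAs, and the sources used here do not say which siRNA went into which library. Polyadenylated RNA was sequenced with a kit that does not mark strand. The comparison asks which sphingolipid genes changed their transcript level when Qk was reduced.

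Each library held between 58166490 and 141045937 tags, a tag being the estimated count of Quantas, and levels are given in RPKM, that is tags scaled by exon length and library total. Qk lay between 163 and 209 RPKM in siNC and between 36.2 and 76.6 RPKM in siQk (log2 fold change -1.98, standard error (SE) 0.28, FDR 0.00311 from edgeR). The smallest library, siNC replicate 1, carried 3.11% of its tags on the ribosomal gene Rn45s, against 0.169% to 0.389% in the others. All 8 OPC markers were present, with summed levels from 1023 to 1100 RPKM in siNC and from 1217 to 1370 RPKM in siQk, and 3 of them were called higher and 1 lower. The 8 genes of committed OLs summed to 1221 to 1972 RPKM in siNC and to 1243 to 1439 RPKM in siQk, and 2 were called higher. The 10 myelin and mature OL genes summed to 3307 to 5824 RPKM in siNC and to 1363 to 2065 RPKM in siQk, and 7 of the 9 tested were lower. Of the astrocyte markers, Gja1 stayed at or below 0.0130 RPKM, while Gfap lay between 51.4 and 101 RPKM in siNC and between 9.08 and 11.3 RPKM in siQk. The summed level of the 8 genes ran from 213 to 313 RPKM in siNC and from 187 to 216 RPKM in siQk. S100b, which was not called, held 110 to 175 RPKM of it. Of the 7 tested genes, 4 were lower (Gfap, Aldh1l1, Slc1a3 and Slc1a2) and 1 higher (Sox9). Of the neuronal genes, Stmn2 reached 0.0439 RPKM at most, while Tubb3 lay between 68.4 and 166 RPKM and Map2 between 49.5 and 98.4 RPKM over both groups. All 9 together lay between 198 and 274 RPKM in siNC and between 204 and 254 RPKM in siQk, with 3 of 8 tested genes higher and 0 lower. The 3 were Snap25 (log2 fold change 2.64), Nefl (1.61) and Map2 (0.57). The 8 microglial genes summed to at most 3.32 RPKM and the 10 fibroblast and vascular genes to at most 5.10 RPKM in any library, and of each of these lists 1 gene was tested, called lower for P2ry12 and not called for Kdr. P2ry12 had 91, 829 and 368 tags in siNC and 50, 36 and 85 in siQk. It thus passed the filter on low values through the siNC libraries, and siNC replicate 2 held most of its tags. The part of these lists in the results that follow was not tested. In bulk RNA, fewer cells of a type and less RNA per cell cannot be told apart.

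In siQk, transcripts of Degs1, Cers2 and Cers4 of ceramide synthesis, Ugt8a of galactosylceramide synthesis, Sgms2, the glycolipid carrier Gltp, and Cerk and Sgpl1 of turnover were lower. Ugcg, St3gal5 and St8sia1, which are steps on the route from ceramide to GD3, and the sphingomyelinase Smpd3 were higher. B4galt6, which acts between Ugcg and St3gal5, and B4galt5 of the wider pathway were not called (log2 fold change 0.11 and -0.080). The first enzymes of the pathway, Sptlc1 and Sptlc2, did not pass the test. The call needed P under 0.01 together with FDR under 0.1 in the quasi-likelihood test of edgeR, fitted and adjusted over the 12505 genes with an average logCPM over 0. Of the 33 members, 29 passed this filter on low values, and Sptlc3, Cers3, St8sia5 and Sphk1 did not. Called changed were 12 of the 29, where 31.0% of all tested genes were called. Lower were 8 members, against 17.2% of all genes, and higher were 4, against 13.8% of all genes. A called change of 1 or more in log2 units was seen for 5 members, all lower, where 7.21% of all genes changed by that much, 4.69% lower and 2.52% higher. The median log2 fold change of the 29 was -0.14, against 0.01 for all tested genes, and the median absolute value was 0.37 against 0.25. The members' median was 0.013 with library size only, where that of all genes was 0.16, and it was -0.26 with filterByExpr or without siQk replicate 3. When libraries were scaled by their size only, without TMM, 7 members were lower and 7 higher, while all genes went from 2149 lower and 1730 higher to 1365 lower and 2989 higher. Without siQk replicate 1, 6 of 30 tested members were called, where 19.8% of all genes were, so that the members' share was near that of all genes there. Without siQk replicate 3, 8 of 31 were called, where 24.0% of all genes were. The count was 9 of 31 without siQk replicate 2 (21.5% of all genes) and 9 of 30 without siNC replicate 1 (25.4% of all genes). Exons of 13 members overlap those of a gene on the other strand, whose reads cannot be told apart here, and these partners are named with the members.

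**Figure D1:**
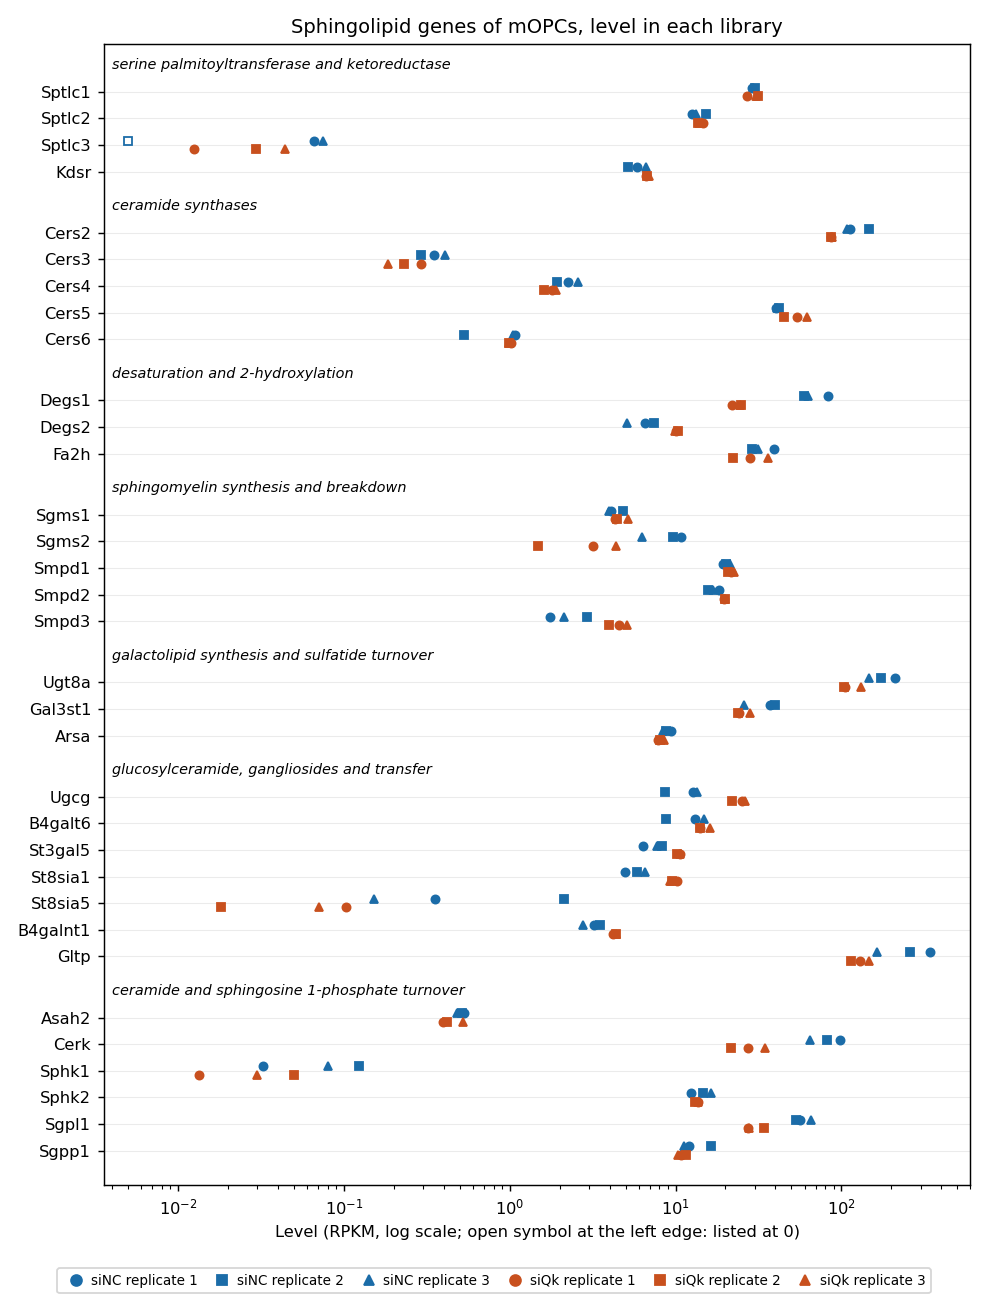
Level of the 33 members in each library, in RPKM on a log scale, grouped by step, with siNC in blue, siQk in orange and 1 symbol shape per replicate number. The siQk symbols lie to the left of the siNC symbols for Degs1, Sgms2, Cerk and Sgpl1 and to the right for Ugcg, Smpd3 and St8sia1, while the first enzymes, Sptlc1 and Sptlc2, overlap.

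RPKM ranges of siNC and siQk did not overlap for 16 of the 29 tested members, 8 lower and 8 higher, where 58.3% of all tested genes had ranges that did not overlap. RPKM carries no TMM factor, and these factors were 0.899 to 0.987 in siNC and 1.044 to 1.066 in siQk. RPKM thus sets siQk higher than the fit does, and of the 8 higher members Cers5, Degs2, Smpd2 and B4galnt1 were not called. The order of the levels put Gltp first in siNC (254 ± 88.4 RPKM, SD, n = 3), followed by Ugt8a (177 ± 30.9 RPKM), Cers2 (123 ± 21.5 RPKM), Cerk (81.8 ± 16.6 RPKM) and Degs1 (68.1 ± 12.6 RPKM). Ranges overlapped between Gltp and Ugt8a and between Cerk and Degs1, but not between Cers2 and either neighbour, of which Ugt8a came within 1 RPKM. In siQk the order was Gltp (131 RPKM, lowest library 115, highest 147), Ugt8a (114 ± 15.9 RPKM), Cers2 (87.1 ± 0.268 RPKM) and Cers5 (53.7 ± 8.35 RPKM), and Gltp and Ugt8a alone overlapped there. The levels of all 33 genes summed to 1061 ± 151 RPKM in siNC and to 734 ± 59.1 RPKM in siQk, and without Gltp and Ugt8a to 629 ± 33.6 and 490.0 ± 27.9 RPKM.

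**Figure D2:**
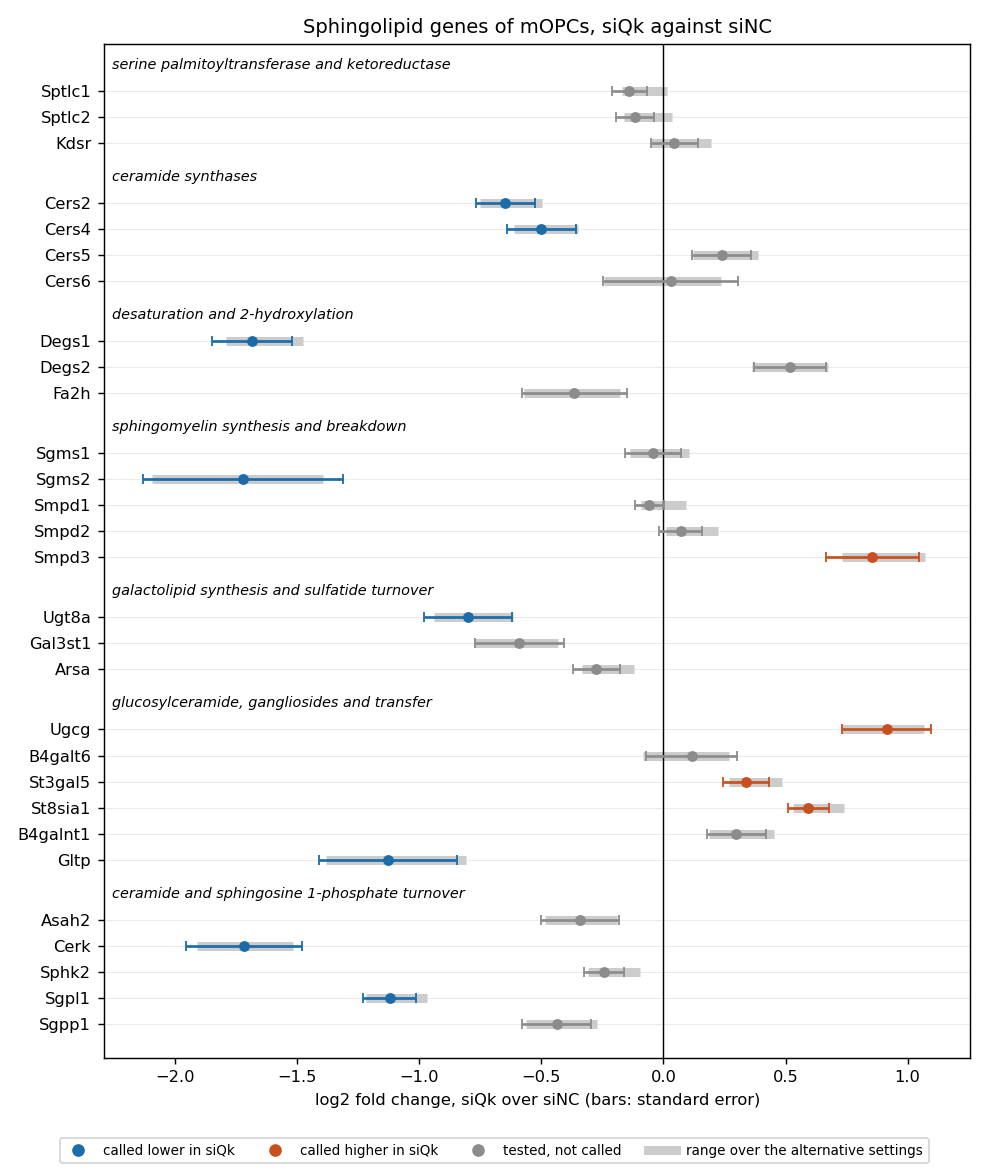
Log2 fold change of siQk over siNC for the 29 tested members, with the standard error as a bar, blue for called lower, orange for called higher and grey for not called. The pale band behind each point spans its values over 16 alternative settings, and the bands of the 12 called members stay on one side of 0.

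Quaking proteins bind RNA at ACUAAC and ACUAAU, which read ACTAAC and ACTAAT in the DNA alphabet. Both were searched on the sense strand of 1 3'UTR a gene, the longest in GENCODE M21, and not on the other strand, since the protein binds RNA. Of 11831 tested genes with such a 3'UTR, 36.1% held at least 1 of them. Among members, 5 of the 8 called lower, 0 of the 4 called higher and 5 of the 16 not called did. For all tested genes the shares were 52.9% of those lower, 27.3% of those higher and 33.6% of those not called. The median 3'UTR length was 2086 bases for the lower members and 2576 bases for the higher ones, against 1287 bases for all tested genes and 1566 bases for all lower genes. Per kilobase of 3'UTR, the lower members held 0.327 matches, against 0.494 for all lower genes and 0.345 for all tested genes. Cers4 weighs heavily on the value of the lower members, with 1 match in a 3'UTR of 7900 bases, the longest among them. That 3'UTR is longer than the 3668 bases of exon that the files count for Cers4. The counts are of matching letters, and binding was not measured in these libraries. Of the 5 lower members with a match, Degs1 alone kept its call under all 16 alternatives. The sites of these 5 are shown with the motif in capitals between 12 bases on each side, in the direction of the transcript and in mm10 coordinates.
Degs1, chr1:182275794-182275823, minus strand: ttgtctcaagaaACTAACatcctgtgctat
Sgms2, chr3:131319370-131319399, minus strand: ggcttgttacccACTAACtaactgtactgt
Sgms2, chr3:131319366-131319395, minus strand: tgttacccactaACTAACtgtactgtgttc
Gltp, chr5:114670125-114670154, minus strand: ttaacgttgctaACTAACgttgctaacgtg
Ugt8a, chr3:125865915-125865944, minus strand: ttaatgtcactcACTAACatggcagagttg
Ugt8a, chr3:125865579-125865608, minus strand: ttgacaatagacACTAACtggatgattaag
Cers4, chr8:4525973-4526002, plus strand: cacactgaccttACTAATaacctcagtaca
The Degs1 match lies in the part of the GENCODE 3'UTR that extends past the end of the RefSeq gene, whose boundary is at 182275964. The pair of matches in Sgms2 overlaps, with their starts 4 bases apart (3720 and 3724 from the start of the 3'UTR). Of the 5 members with a match that were not called, the sites of Cers6 (log2 fold change 0.030), Kdsr (0.045), Sphk2 (-0.24) and Sptlc1 (-0.14) are not shown. The other, Gal3st1 (-0.59), held 1 match in a 3'UTR of 260 bases:
Gal3st1, chr11:3999223-3999252, plus strand: gagaggtatttaACTAATtatgccattttt
Cerk, Cers2 and Sgpl1, which were called lower under all 16 alternatives, had no match in these 3'UTRs, which were 2429, 810 and 2226 bases long.

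At the first steps of synthesis, edgeR called 0 of the 3 tested members, 0 of them had an unadjusted P under 0.05, and DESeq2 called 0. Sptlc1 and Sptlc2, the catalytic pair of serine palmitoyltransferase, were at 29.5 ± 0.559 and 13.7 ± 1.35 RPKM in the siNC libraries and at 29.7 ± 2.27 and 14.0 ± 0.465 RPKM in the siQk libraries (SD, n = 3 each). Their log2 fold changes were -0.14 (SE 0.07) and -0.12 (SE 0.08), below 0 although the RPKM means were level, because RPKM values carry no TMM factor, and with library size only they were 0.013 and 0.033. Kdsr, the ketoreductase of the next step, had a log2 fold change of 0.045 (SE 0.097), and of -0.050 without siNC replicate 2. Sptlc3, the other catalytic subunit, was near the limit of detection with 28 tags or fewer in every library. It was listed at 0 in siNC replicate 2, where 3 tags would be 0.00952 RPKM, and at 0.0745 RPKM or less elsewhere.

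Ceramide synthases attach the fatty acid, and each isoform prefers certain chain lengths. Cers2, which makes the very long chain ceramides that myelin lipids carry, lies on chromosome 3 from 95314771 to 95323599 (RefSeq, GRCm38.p6, as all gene positions here). For replicates 1, 2 and 3 it was at 113, 147 and 108 RPKM among siNC libraries and at 87.1, 86.8 and 87.3 RPKM among siQk libraries, the order kept for all values below. All siQk libraries stood below the lowest siNC library and within 1 RPKM of each other, and edgeR gave a log2 fold change of -0.65 (SE 0.12, FDR 0.00798). Exons of Cers2 overlap those of Setdb1 and 6330562C20Rik. Cers4 was lower as well, at 2.26 ± 0.327 RPKM under siNC and 1.77 ± 0.145 RPKM under siQk (log2 fold change -0.50, SE 0.14, edgeR FDR 0.0311), and its exons overlap Gm36956 and Vmn2r-ps89. Its call was lost without siNC replicate 1 (-0.46) or 3 (-0.42), without siQk replicate 1 (-0.51), 2 (-0.43) or 3 (-0.56), and with library size only (-0.35), upper quartile factors (-0.44) or filterByExpr (-0.49). Cers5, which prefers palmitoyl-CoA, was at 41.0 ± 1.1 RPKM under siNC and 53.7 ± 8.35 RPKM under siQk, a log2 fold change of 0.24 (SE 0.12) that did not pass, although it was called without siQk replicate 2 (0.36) and with library size only (0.39). Cers6 stayed between 0.530 and 1.07 RPKM in every library, with a log2 fold change of 0.030 that was -0.24 without siNC replicate 2. Cers3 did not pass the filter and was between 0.185 and 0.408 RPKM. Cers2 made up 73.1 ± 3.11% of the summed RPKM of the 5 synthases in siNC and 60.7 ± 3.53% in siQk (SD, n = 3 each), and the lowest siNC library (70.7%) lay above the highest siQk library (64.4%).

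Degs1, the desaturase that turns dihydroceramide into ceramide, had the lowest P of all members. On chromosome 1 from 182275964 to 182282854, it was at 82.6, 59.2 and 62.6 RPKM in the siNC libraries and at 22.0, 24.7 and 24.3 RPKM in the siQk libraries. Every siQk library held less than every siNC library, and 34.8% of the mean siNC level remained. Its log2 fold change was -1.68 (SE 0.16, edgeR FDR 0.00104), and from -1.79 to -1.47 over the 16 alternatives, all of which called it. Degs2, a related enzyme that can also hydroxylate ceramide, went from 6.35 ± 1.17 to 10.1 ± 0.224 RPKM with ranges that did not overlap. A log2 fold change of 0.52 (SE 0.15, edgeR FDR 0.0325) missed the cutoff on the unadjusted P narrowly, and 10 of the 16 alternatives called it, among them the fits without siNC replicate 2 (0.63) or 3 (0.36). Exons of Degs2 overlap those of Evl. Degs1 stood 11.0 ± 2.6 times above Degs2 in siNC and 2.34 ± 0.13 times in siQk.

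Fa2h, the fatty acid 2-hydroxylase of hydroxylated myelin galactolipids, was at 39.4, 29.0 and 31.5 RPKM in the siNC libraries and at 28.1, 22.2 and 36.2 RPKM in the siQk libraries. The ranges overlapped, with siQk replicate 3 above the lower pair of siNC libraries. The log2 fold change of -0.37 (SE 0.21) did not pass in the reported fit or in any of the 16 alternatives.

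Sphingomyelin is made from ceramide by Sgms1 at the Golgi and Sgms2 mainly at the plasma membrane, and sphingomyelinases release ceramide again. Sgms2, on chromosome 3 from 131318985 to 131491443, was at 10.7, 9.70 and 6.28 RPKM in the siNC libraries and at 3.16, 1.49 and 4.37 RPKM in the siQk libraries. The groups did not overlap, siQk replicate 2 was the lowest library and siNC replicate 3 the lowest of its group. For Sgms2 edgeR gave a log2 fold change of -1.72 (SE 0.41, FDR 0.0185), and the call was lost without siNC replicate 1 (-1.52), siNC replicate 2 (-1.67) or siQk replicate 1 (-1.76). Sgms1 stayed at 4.31 ± 0.472 RPKM under siNC and 4.64 ± 0.469 RPKM under siQk, and had a log2 fold change of -0.044 whose sign turned with library size only (0.11) and upper quartile factors (0.016), and without siNC replicate 2 (0.037) or siQk replicate 1 (0.0062). The level of Sgms1 was 0.505 ± 0.129 times that of Sgms2 in siNC and 1.84 ± 0.986 times in siQk. Smpd1, the acid sphingomyelinase of lysosomes, and Smpd2 had log2 fold changes of -0.058 and 0.071, of which the first was positive with library size only (0.091) and upper quartile factors (0.0013). Smpd3, the neutral sphingomyelinase used in exosome release, was higher, going from 2.27 ± 0.603 to 4.54 ± 0.59 RPKM (log2 fold change 0.85, SE 0.19, edgeR FDR 0.0147). Its call was lost without siNC replicate 3 (0.79), siQk replicate 1 (0.86) or siQk replicate 3 (0.75). Smpd2 and Smpd3 share exonic positions with Mical1 and Prmt7, and Sgms1 with 2700046G09Rik.

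Ugt8a transfers galactose onto ceramide and so makes galactosylceramide. It lies on chromosome 3 from 125865272 to 125938682, and its levels were 209, 174 and 148 RPKM in siNC and 106, 103 and 132 RPKM in siQk. All siQk libraries were below all siNC libraries, with siQk replicate 3 closest to siNC replicate 3. Ugt8a had a log2 fold change of -0.80 (SE 0.18, edgeR FDR 0.0154), and the call was lost without siQk replicate 1 (-0.75) or 2 (-0.73). Gal3st1, the sulfotransferase that makes sulfatide, was at 37.2, 39.6 and 26.0 RPKM in the siNC libraries and at 24.2, 23.8 and 28.1 RPKM in the siQk libraries. Its ranges overlapped, since siNC replicate 3 was below siQk replicate 3. Its log2 fold change of -0.59 (SE 0.18, edgeR FDR 0.0421) missed the cutoff on the unadjusted P, and it was called under 6 of the 16 alternatives, among them the fit without siNC replicate 3 (-0.78). Arsa, the lysosomal sulfatase that removes the sulfate, was at 8.86 ± 0.494 RPKM under siNC and 8.14 ± 0.396 RPKM under siQk, and its log2 fold change of -0.28 passed under none of the 16. Exons of Arsa overlap those of C230037L18Rik. The summed level of the myelin and mature OL genes was likewise lowest among siNC libraries in replicate 3 (3307 RPKM) and highest among siQk libraries in replicate 3 (2065 RPKM).

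**Figure D3:**
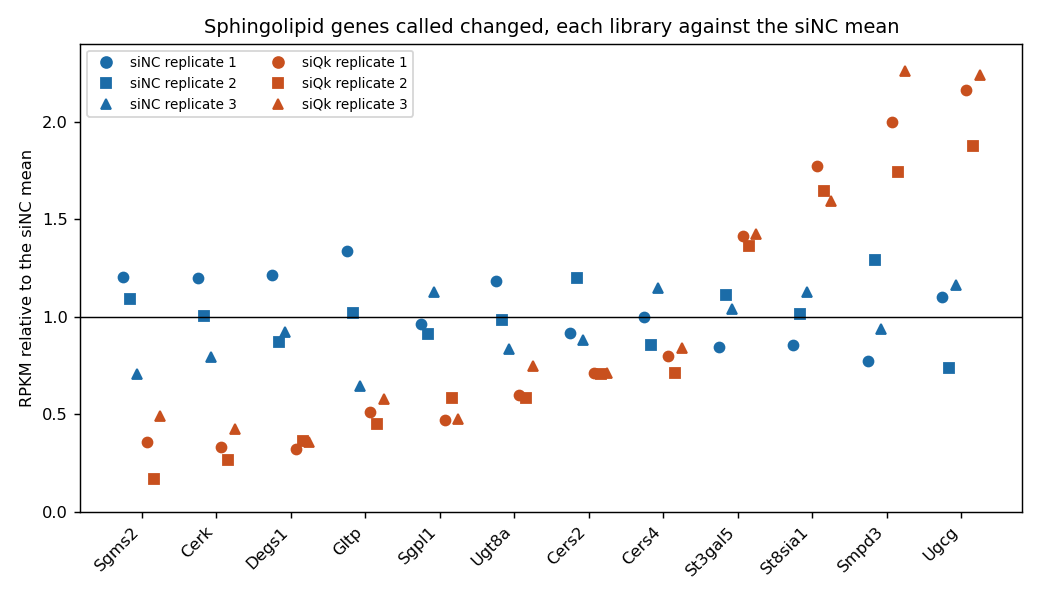
RPKM of the 12 called members in each library, divided by the mean of the siNC libraries of that gene, on a linear axis from 0, with siNC in blue, siQk in orange and 1 symbol shape per replicate number. No siQk symbol of the 8 genes on the left lies above a siNC symbol of the same gene, and the 4 genes on the right show the opposite order.

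Ugcg, which puts glucose onto ceramide and so opens the route to gangliosides, moved the other way. On chromosome 4 from 59189507 to 59222833, it was at 12.8, 8.59 and 13.5 RPKM in the siNC libraries and at 25.2, 21.8 and 26.1 RPKM in the siQk libraries. Each siQk library stood above each siNC library, edgeR gave a log2 fold change of 0.91 (SE 0.18, FDR 0.0102), and all 16 alternatives called it. The ratio of Ugt8a to Ugcg within a library was 16.4, 20.3 and 10.9 in siNC and 4.20, 4.73 and 5.06 in siQk. Galactosyltransferase transcripts thus stayed above glucosyltransferase transcripts per length in all 6 libraries, by 15.9 ± 4.71 times in siNC and 4.66 ± 0.434 times in siQk.

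St8sia1, the sialyltransferase that makes GD3, was at 4.95, 5.87 and 6.51 RPKM in the siNC libraries and at 10.2, 9.49 and 9.20 RPKM in the siQk libraries. It lies on chromosome 6 from 142821541 to 142989528. The ranges did not overlap, edgeR gave a log2 fold change of 0.59 (SE 0.08, FDR 0.00331), and the 16 alternatives kept the call. Its exons overlap those of Gm7457. St3gal5, which makes the GM3 that St8sia1 uses, was at 7.49 ± 1.03 RPKM under siNC and 10.5 ± 0.243 RPKM under siQk (log2 fold change 0.34, SE 0.095, edgeR FDR 0.0309). Its call was lost without siNC replicate 1 (0.27) or 3 (0.34) and without siQk replicate 1 (0.33), 2 (0.37) or 3 (0.32). B4galnt1, which makes the complex gangliosides GM2 and GD2, had a log2 fold change of 0.30 (SE 0.12) that passed with library size only (0.45), and it shares exonic positions with Slc26a10. B4galt6, a lactosylceramide synthase, had a log2 fold change of 0.11 that turned to -0.083 without siNC replicate 2. St8sia5, a sialyltransferase of complex gangliosides, did not pass the filter. It was at 0.353, 2.13 and 0.152 RPKM in siNC, from 41, 472 and 40 tags, and at 0.103, 0.0182 and 0.0713 RPKM in siQk, from 29, 3 and 18 tags, so that 1 siNC library held most of its tags. Its exons overlap those of Gm7276.

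Gltp, a cytosolic carrier that moves glycolipids between membranes, had the highest level of all members. It lies on chromosome 5 from 114669490 to 114690935, and was at 340.3, 259 and 164 RPKM in the siNC libraries and at 130.003, 115 and 147 RPKM in the siQk libraries. The groups did not overlap, although siNC replicate 3 and siQk replicate 3 were close, and the spread among the siNC libraries was wide. Gltp had a log2 fold change of -1.13 (SE 0.28, edgeR FDR 0.0217). The call was lost without siNC replicate 1 (-0.81) or 2 (-1.13) and without siQk replicate 1 (-1.12), 2 (-1.03) or 3 (-1.23).

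Ceramide and sphingosine are turned over by kinases, phosphatases, ceramidases and a lyase. Cerk, which phosphorylates ceramide, lies on chromosome 15 from 86139101 to 86186259, and was at 98.1, 82.2 and 65.0 RPKM in the siNC libraries and at 27.2, 21.6 and 34.5 RPKM in the siQk libraries. The lowest siNC library was well above the highest siQk library, and 33.95% of the mean remained (log2 fold change -1.72, SE 0.24, edgeR FDR 0.00299). Exons of Cerk overlap those of Gm15569. Sgpl1, the lyase that cleaves sphingosine 1-phosphate and so ends the pathway, lies on chromosome 10 from 61098642 to 61147684. It was at 56.0, 53.1 and 65.6 RPKM in the siNC libraries and at 27.3, 34.05 and 27.8 RPKM in the siQk libraries, again without overlap (log2 fold change -1.12, SE 0.11, edgeR FDR 0.00105). Both genes were called under all 16 alternatives. Sgpp1, a phosphatase of sphingosine 1-phosphate, was at 13.3 ± 2.75 RPKM under siNC and 10.9 ± 0.567 RPKM under siQk. Its log2 fold change of -0.44 (edgeR FDR 0.0499) did not pass but was called under 5 alternatives, among them the fit without siNC replicate 3 (-0.56). Sphk2, a sphingosine kinase, had a log2 fold change of -0.24 that passed without siNC replicate 1 (-0.31), and its exons overlap Dbp and Rpl18. Asah2, the neutral ceramidase, stayed between 0.394 and 0.530 RPKM with a log2 fold change of -0.34 that did not pass. Sphk1, the other sphingosine kinase, was near 0, with 5 to 36 tags in siNC and 5 to 11 tags in siQk, and its exons overlap those of Gm29292.

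The order of the libraries within a group was compared for Qk and the 8 members called lower, after their values were seen. Qk was highest in siQk replicate 2 (76.6 RPKM) and lowest in siQk replicate 3 (36.2 RPKM), whereas Sgms2, Cerk, Gltp and Ugt8a were each lowest in siQk replicate 2 and highest in siQk replicate 3. Among siNC libraries the same 4 genes were highest in replicate 1 and lowest in replicate 3, where Qk (163 RPKM) was lowest too. The summed level of the 10 myelin and mature OL genes had the same order of libraries in both groups, with 1363 RPKM in siQk replicate 2 and 5824 RPKM in siNC replicate 1. Degs1 and Sgpl1 differed from this order, since siQk replicate 1 was the lowest library for both (22.0 and 27.3 RPKM). Cers2 and Cers4 had this order in siQk, where Cers2 ran only from 86.8 to 87.3 RPKM, but not in siNC. There Cers2 was highest in replicate 2 (147 RPKM) and Cers4 in replicate 3 (2.59 RPKM). With 3 libraries a group, this is a description without a test.

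**Figure D4:**
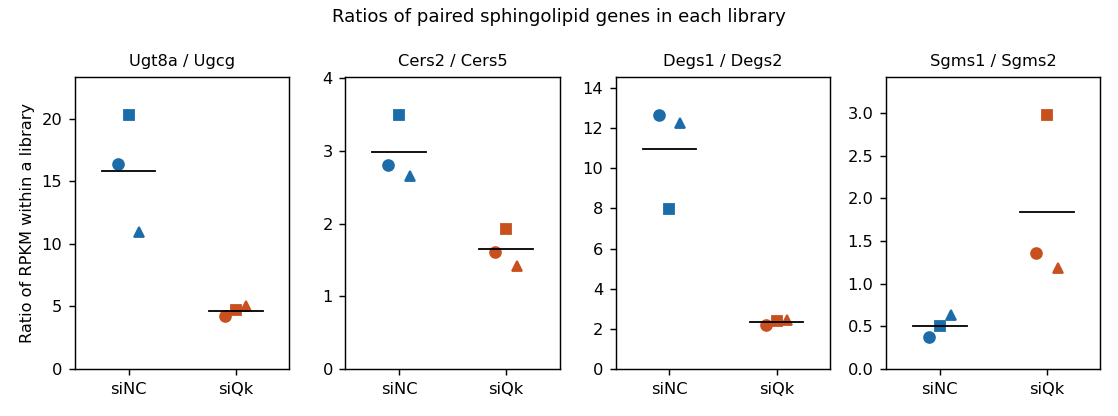
Ratio of the RPKM of a pair of genes within each library, with siNC in blue, siQk in orange, circles, squares and triangles for replicates 1, 2 and 3, and a line at the mean of each group. The siQk ratios lie below the siNC ratios for Ugt8a to Ugcg, Cers2 to Cers5 and Degs1 to Degs2, and above them for Sgms1 to Sgms2. The pairs were picked after their values had been seen, and no test was made.

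The rest of the pathway was taken from a list of 62 further genes, all of which had a row and 48 of which were tested. EdgeR called 18 of them, with 16 lower and 2 higher, against 31.0% of all tested genes called, 17.2% lower and 13.8% higher. Their median log2 fold change was -0.19, against 0.01 for all tested genes. A log2 fold change beyond 1 in size was called for 8 of the 48, all of them lower, where 7.21% of all genes changed and 4.69% were lower by that much: Galc, Asah1, Samd8, S1pr1, S1pr5, Plpp2, St6galnac3 and Elovl7. Galc, the lysosomal enzyme that removes galactose from galactosylceramide, was at 33.4, 37.4 and 31.7 RPKM in the siNC libraries and at 10.7, 11.9 and 10.2 RPKM in the siQk libraries, and 31.9% of the mean siNC level remained, with no overlap between the groups. Galc had a log2 fold change of -1.80 (SE 0.09, edgeR FDR 0.000336). Asah1, the acid ceramidase, was at 78.2 ± 7.28 RPKM under siNC and 42.4 ± 1.85 RPKM under siQk (log2 fold change -1.03). Samd8, a relative of the sphingomyelin synthases that makes ceramide phosphoethanolamine, was at 28.2 ± 1.38 and 14.0 ± 1.38 RPKM (log2 fold change -1.16). These 3 genes were called under all 16 alternatives.

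S1pr1, a receptor of sphingosine 1-phosphate, was at 11.9, 15.6 and 11.4 RPKM in the siNC libraries and at 5.33, 5.53 and 5.46 RPKM in the siQk libraries (log2 fold change -1.40, SE 0.13). S1pr5, the receptor typical of OLs, was at a low level of 0.606, 1.22 and 0.243 RPKM in siNC and 0.108, 0.0727 and 0.219 RPKM in siQk. For S1pr5 the log2 fold change was -2.49 (SE 0.67), and its call was lost without siQk replicate 1 or 2. Its average logCPM of 0.046 was just over the filter, from 88, 336 and 80 tags in siNC and 38, 15 and 69 in siQk. It thus passed the filter through the siNC libraries, and it was tested in 14 of the 16 alternatives. Plpp2, a lipid phosphate phosphatase, was also low in level, at 1.74 ± 0.6 RPKM under siNC and 0.499 ± 0.138 RPKM under siQk (log2 fold change -1.94). Its tags were 223, 393 and 247 in siNC and 151, 50.2 and 123 in siQk. Plpp2 thus passed the filter mainly through the siNC libraries too, and both genes are counted among the lower ones above. St6galnac3, a ganglioside sialyltransferase, had a log2 fold change of -1.20. Elovl7, an elongase of long chain fatty acids, was at 49.0 ± 12.7 RPKM under siNC and 25.2 ± 8.03 RPKM under siQk (log2 fold change -1.12), and dropping either of siNC replicates 1 and 2 or of siQk replicates 1 and 2 ended its call.

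The counts by step stand against 31.0% of all tested genes called, 17.2% lower and 13.8% higher, and each step holds few genes. In all, 6 of the 12 tested genes listed under lysosomal glycolipid breakdown were called, 5 lower and 1 higher. The list is wider than its name, since Sumf1, 1 of the 5 lower (-0.99), is not itself a lysosomal enzyme. The higher gene was Gba2, a glucosylceramidase outside lysosomes (0.23), whose call was lost under 8 alternatives. Of the ceramidases and phosphate steps, 4 of 6 were called, all lower, among them Aldh3a2, which handles the fatty aldehyde that Sgpl1 releases (log2 fold change -0.90). Of the regulators and small subunits of serine palmitoyltransferase, 1 of 4 was called, the small subunit Sptssa (log2 fold change -0.81), while Ormdl1, Ormdl2 and Ormdl3, which restrain the enzyme, had values of 0.11, -0.00071 and 0.13. Of the elongation genes, 3 of 6 were called: Elovl1, which makes the very long acyl chains that Cers2 uses, was lower (-0.45) with Elovl7, and Elovl6 was higher (0.40). Of the 3 tested lipid transfer genes, edgeR called 0 and DESeq2 0, and 2 had an unadjusted P under 0.05. The 3 were Cert1, the ceramide carrier (0.033), Cptp, which carries ceramide 1-phosphate (0.20, called with library size only), and Plekha8 (0.26, called without siNC replicate 2). Hexa, listed at 0.286 RPKM or less, did not pass the filter.

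**Figure D5:**
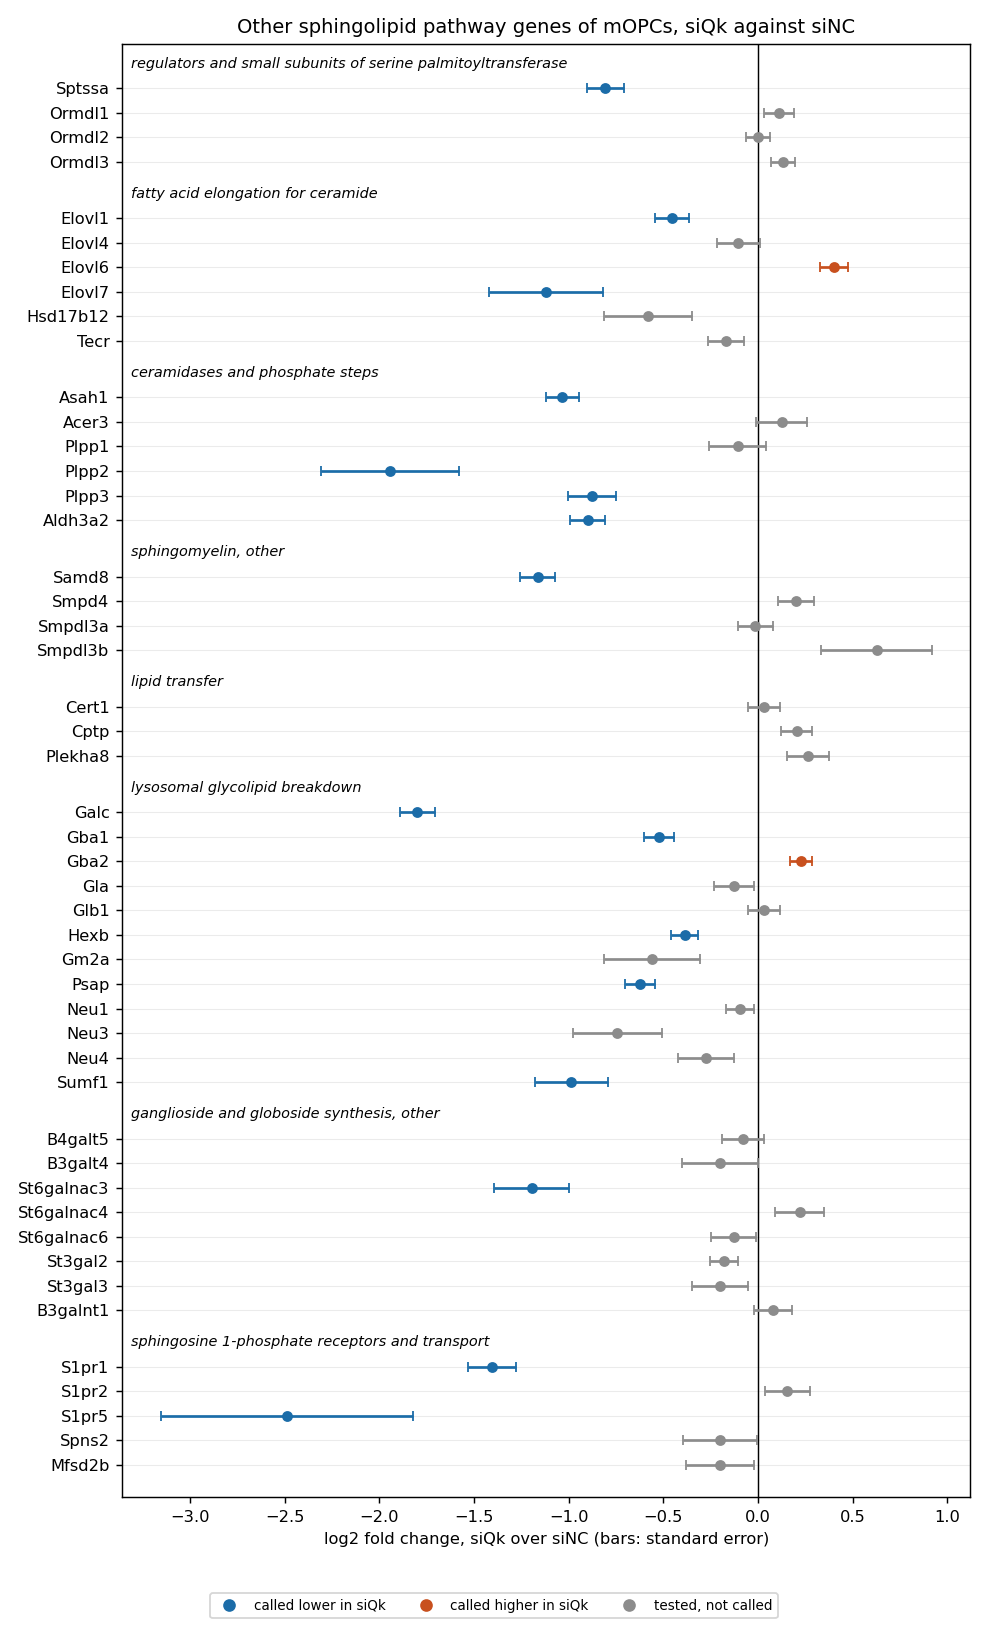
Log2 fold change of siQk over siNC for the 48 tested genes of the wider sphingolipid list, grouped by function, with the standard error as a bar, blue for called lower, orange for called higher and grey for not called. The 16 lower genes are spread over 7 of the 8 groups, with Galc, Plpp2 and S1pr5 farthest to the left, and the 2 higher genes are Elovl6 and Gba2.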

How the data were processed

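The 6 libraries were grouped by their titles (3 siNC, 3 siQk). Paired-end reads of 75 nt were aligned by the authors with OLego (mm10), and Quantas counted genes (versions and annotation not given in the sources used here). For each library they deposited an estimated count of tags per gene, exon length and RPKM, and recomputing RPKM from the deposited counts gave the same values. The counts were rounded, genes with an average logCPM over 0 were kept (12505 of 23038), and edgeR 4.0.16 (quasi-likelihood test, TMM, group only, R 4.3.3, limma 3.58.1) was run, with Benjamini-Hochberg FDR over all genes tested. The SE is the size of the log2 fold change divided by the root of F. The labels call the libraries biological replicates, and P measures the spread between these libraries. No pair of libraries in a group agreed within sampling noise (chi-square per degree of freedom of 44.7 or more). The members, lists and tests were chosen with earlier results of these data known. The named genes were all members by step, with values in every library for members called with a log2 change of 1 or more in size and for Ugt8a, Gal3st1, Fa2h, Cers2, Ugcg and St8sia1, and the wider-list genes called with a change of that size. Other genes named from the wider list, and the pairs set in ratio, were picked after their values were seen. The fit was tested on simulated data. RefSeq (GRCm38.p6) gave gene coordinates, and GENCODE M21 (GRCm38) gave 3'UTRs of at least 50 bases, found for 32 members, and exon overlaps, which 13 members had with a gene on the other strand. Alternatives were DESeq2 1.42.0, edgeR's likelihood ratio and exact tests, other scalings and filters, FDR below 0.05 alone, the replicate number as a block and each library left out. Depth was high for most members, so that the number of libraries limits the precision.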

Additional observations from a re-analysis of the deposited data

How the results depend on the processing

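Under 16 alternatives, 6 of the 12 called genes kept their call and direction (Cers2, Degs1, Ugcg, St8sia1, Cerk and Sgpl1), while Cers4, Sgms2, Smpd3, Ugt8a, St3gal5 and Gltp each lost the call in some, and 6 uncalled genes were called in some. Qk kept its call in each. With library size only, the median over all genes was 0.16 and that of the members 0.013, 7 members were called higher, and Sptlc1 (0.013), Sptlc2 (0.033), Sgms1 (0.11) and Smpd1 (0.091) changed sign. With upper quartile factors, Sgms1 (0.016) and Smpd1 (0.0013) did. With filterByExpr the members' median was -0.26, with all 33 tested. Leaving out 1 library gave from 6 to 13 members called, 4 to 10 lower (4 without siQk replicate 1, 5 without siQk replicate 2) and 2 to 5 higher (2 without siQk replicate 1 or 3), and medians from -0.26 to -0.16, with 2478 genes in all without siQk replicate 1. It gave Kdsr from -0.050 to 0.11, Cers6 from -0.24 to 0.23, Sgms1 from -0.14 to 0.037 and B4galt6 from -0.083 to 0.24, so that the sign of each turned. The number of further pathway genes called, 18, ranged from 15 to 19 over all alternatives. Of the 4 members under the filter, testing all genes called St8sia5 (log2 fold change -3.81, FDR 0.0261 from edgeR).

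Libraries with the same replicate number showed no likeness across the groups. Their deviations from the group mean had correlations of -0.053, -0.152 and -0.340, and 0 of 6 libraries correlated best with its own number. With 3 libraries a group, this cannot exclude a pairing. In the fit with the replicate block, 7 members were called, 5 lower and 2 higher, and 2796 genes in all (22.4%). It ended the calls of Sgms2 (-1.82), Smpd3 (0.88), Ugt8a (-0.79), St3gal5 (0.34) and Gltp (-1.06), and those of S1pr5, Elovl7 and Gba2. The causes of these moves were not tested.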
